A study of Homo sapiens with 6 samples.

Results

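The mitochondrial ribosomal protein genes are the nuclear genes with the symbols MRPL and MRPS followed by a number. That pattern found 78 of the 19912 rows of the mRNA table, 49 of them MRPL genes (large subunit by name) and 29 MRPS genes (small subunit by name). All 77 protein-coding symbols that RefSeq now lists under the pattern had a row. The remaining row, MRPS36, is an older symbol for a protein of the 2-oxoglutarate dehydrogenase complex and not a ribosome subunit.

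RNA was sequenced from PANC-1 cells, a human pancreatic ductal carcinoma line, in a form labelled as resistant to gemcitabine, a nucleoside drug; all 6 libraries share this phenotype. By their labels, 3 libraries had a control treatment (titles NC1 to NC3) and 3 a hairpin knockdown (shSRSF3; titles SRSF3KD1 to SRSF3KD3) of the splicing factor SRSF3. No label names the construct given to the controls, a batch, or cultures from which replicates came, so a p-value reflects how these 6 libraries vary, and that variation may be technical. The contrast addressed here is how the mitoribosomal genes differed between libraries with and without the knockdown label.

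Mitochondria keep their own ribosomes, which translate the few messenger RNAs of the mitochondrial genome, all of them for subunits of the respiratory chain and ATP synthase. The ribosomal RNAs of this mitoribosome are made inside the organelle, whereas its proteins are encoded in the nucleus, made in the cytosol and imported. Many of these proteins have counterparts in bacterial ribosomes, and others are found only in mitochondria.

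Values are FPKM, which count fragments relative to gene length and library size, as deposited. Library totals recovered from the FPKM steps lay between 24558238 and 27351642 fragments. SRSF3 itself stood at 37.0, 39.6 and 39.2 FPKM in control libraries 1 to 3 and at 37.0, 37.1 and 38.6 FPKM in knockdown-labelled libraries 1 to 3. The groups overlapped, and the difference was -0.04 on the log2(FPKM + 1) scale (SE 0.05, limma with Benjamini-Hochberg adjustment, adjusted p = 0.612; exact two-sided permutation p = 0.3, the smallest possible being 0.1). No fall of the targeted RNA was detected, so the libraries are called knockdown-labelled throughout. Epithelial markers summed to between 3570 and 4691 FPKM per library, with KRT8, KRT18 and KRT19 high. KRT7 was at most 0.241 FPKM and MUC1 at most 0.8275 FPKM. Markers of fibroblasts summed to at most 0.446 FPKM, of endothelium to at most 0.277 FPKM, of acinar cells to at most 0.751 FPKM and of immune cells to at most 2.82 FPKM.

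Most of the family was expressed at a moderate level. Of the 78 genes, 75 had a mean of at least 0.5 FPKM and were tested, with means from 0.889 FPKM (MRPL38) to 161.6 FPKM (MRPS34) and a median of 17.4 FPKM. The highest large-subunit genes by name were MRPL37, MRPL41, MRPL14, MRPL28 and MRPL57, and the highest small-subunit genes were MRPS34, MRPS26, MRPS16, MRPS2 and MRPS35. Neighbours in this order often did not differ beyond their spread: MRPL41 at 64.8 ± 3.89 FPKM and MRPL14 at 59.6 ± 2.46 FPKM in the controls (SD, n = 3) overlapped between libraries. MRPS34, by contrast, had no library below 146.4 FPKM, while no other member had a library above 92.3 FPKM. Within a group the family varied about as much as other genes: the median SD of log2(FPKM + 1) was 0.06 among members and 0.06 among all tested rows in the controls, and 0.09 and 0.08 in the knockdown-labelled libraries.

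**Figure D1:**
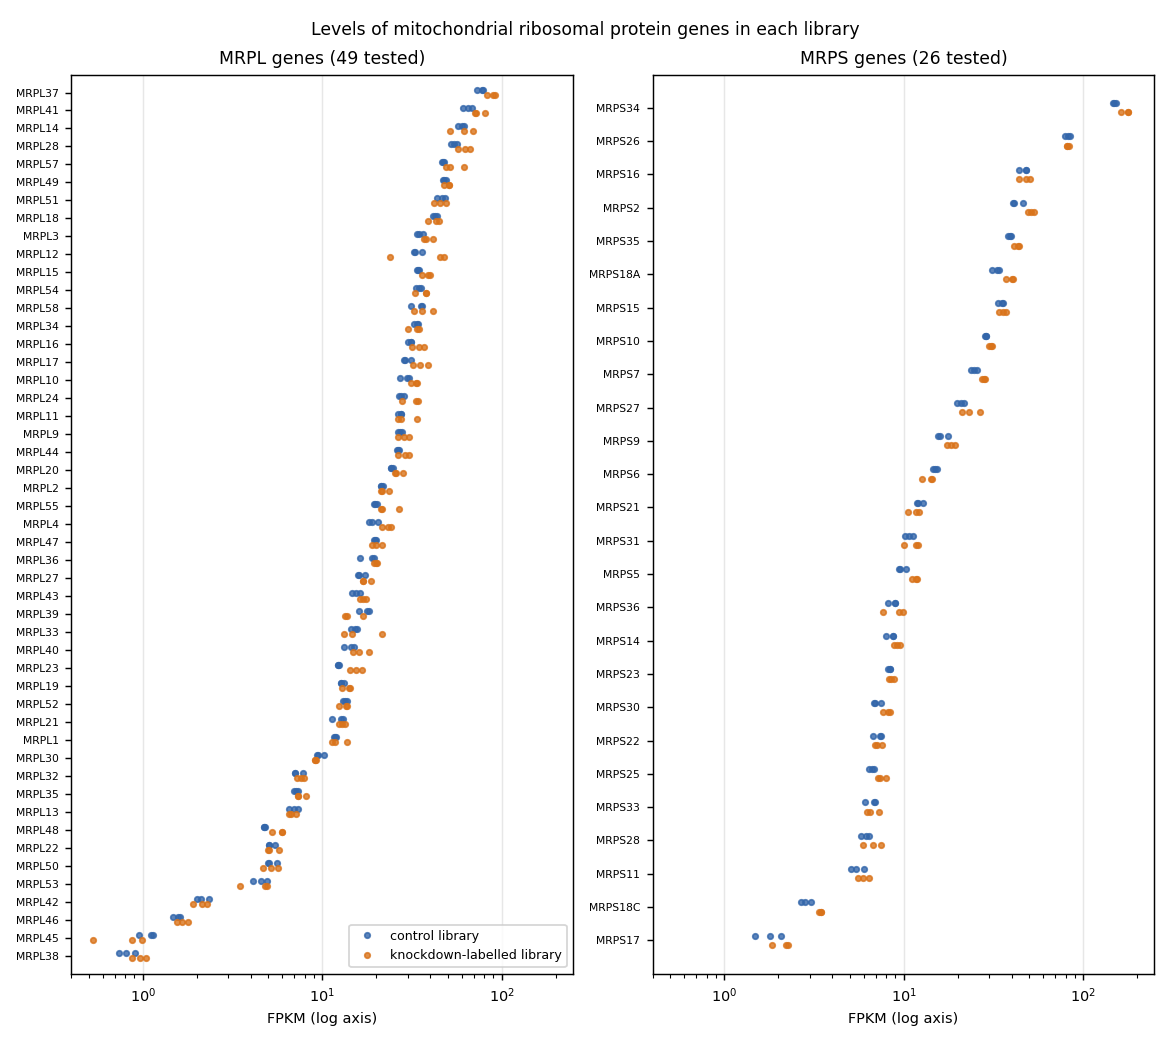
FPKM of each tested MRPL gene (left) and MRPS gene (right) on a log axis, 1 point per library, controls in blue and knockdown-labelled libraries in orange, sorted by mean. Most genes have both groups close together, MRPS34 stands highest at 146.4 to 178.7 FPKM, and MRPL12 has 1 knockdown-labelled library at 23.96 FPKM far below its other libraries.

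The 3 genes not tested all carry small-subunit names. MRPS12, the counterpart of the bacterial decoding protein S12, and MRPS18B, one of several human counterparts of S18, were listed at 0 in every library. A listed 0 is not shown to be absence: 3597 rows of the table (18.1%) were at 0 in all 6 libraries. Among the 10 RefSeq genes nearest MRPS18B that have a row, 9 were also listed at 0 (GNL1, PRR3, ABCF1, PPP1R10, ATAT1, C6orf136, DHX16, PPP1R18 and NRM), and 4 of the 10 nearest MRPS12 were (SIRT2, CCER2, SARS2 and FBXO17). MRPS24, the counterpart of bacterial S3, had 1 to 7 fragments per library, while its neighbours URGCP (at least 11.9 FPKM) and DBNL (at least 11.7 FPKM) were well above 0.

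Between the groups, 11 of the 75 tested members (14.7%) were higher in the knockdown-labelled libraries and 0 were lower (limma, Benjamini-Hochberg adjusted p under 0.05 over all 10823 tested rows). Of all tested rows 10.9% passed as higher and 5.91% as lower, or 16.8% in either direction, so the share of higher calls is near the background. Among rows averaging 5 FPKM or more, where calls are more frequent, 16.0% were higher and 5.86% lower, beside 10 of 68 members higher (14.7%) and 0 lower. At an unadjusted p under 0.05, 28 members were higher and 2 lower, and limma voom on recovered fragment numbers called 13 higher and 0 lower. Over all rows, the voom fit called 1277 higher and 760 lower. All tested rows were not counted at the unadjusted threshold. The unadjusted counts, here and for the lists below, therefore have no background to be compared with. Since RNA was pooled from many cells, more cells expressing a gene and more RNA per cell cannot be told apart.

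The changes were small and mostly in the same direction. Log2 changes ranged from -0.23 (MRPL39) to 0.31 (MRPL23), and 60 of 75 members (80.0%) had a value above 0, against 55.5% of all tested rows and 64.3% of rows averaging 5 FPKM or more. Their median was 0.10, against 0.02 over all tested rows and 0.05 over rows averaging 5 FPKM or more; on the quantile scale it was 0.04, against 0.0036 over all tested rows. All 3 knockdown-labelled libraries exceeded all 3 controls for 25 members, where 22.6% of all rows did so, and 2 members, MRPS6 and MRPL30, were below in all 3, where 15.3% of all rows were. Groups overlapped for the other 48 members. Across the 75 members the log2 change had a Pearson r of 0.291 and a Spearman rho of 0.263 with the log2 mean FPKM, which share the same libraries, and 0.05 and 0.03 with the log2 gene length; genes are not independent replicates.

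**Figure D2:**
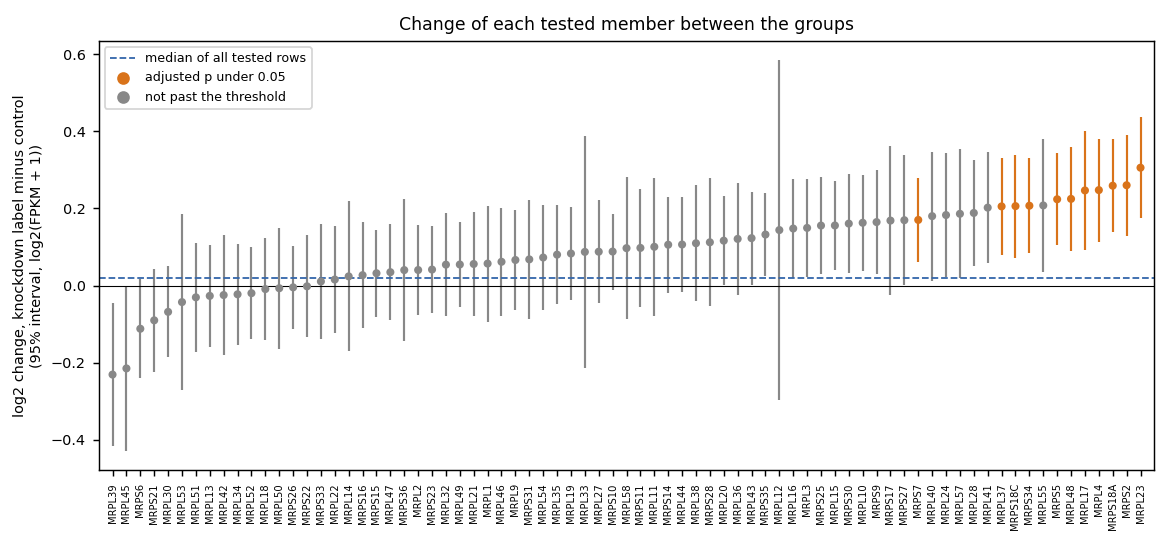
Log2 change of each of the 75 tested members, knockdown label minus control on the log2(FPKM + 1) scale, with 95% intervals, sorted by size; orange marks the 11 with an adjusted p under 0.05 and the dashed line is the median of all tested rows (0.02). Called members lie at the upper end between 0.17 and 0.31, and MRPL12 and MRPL33 have the widest intervals.

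Of the 6 called proteins that structures place in the large subunit, 3 have bacterial counterparts. MRPL23, whose bacterial counterpart sits where the new protein leaves the ribosome, was at 12.2, 12.45 and 12.3 FPKM in the controls and at 16.7, 15.4 and 14.3 FPKM in the knockdown-labelled libraries. Every knockdown-labelled value lay above every control. Its mean was 25.8% higher, a log2 change of 0.31 (SE 0.06, limma with Benjamini-Hochberg adjustment, adjusted p = 0.00851), and it passed under all 14 alternatives tried (adjusted p from 0.00299 to 0.0388). MRPL4, the counterpart of bacterial L4, measured 20.5, 19.1 and 18.3 FPKM against 21.6, 24.3 and 23.3 FPKM. Again the groups did not overlap, and the log2 difference was 0.25 (SE 0.06, limma adjusted p = 0.0213, from 0.0108 to 0.096 over the alternatives). MRPL17, the counterpart of bacterial L17, measured 28.5, 31.2 and 28.9 FPKM against 39.0, 34.9 and 32.0 FPKM. Library 1 of the knockdown label was highest, and the log2 change was 0.25 (SE 0.07, limma adjusted p = 0.0371, from 0.00813 to 0.124 over the alternatives).

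The other 3 called large-subunit proteins are particular to mitochondria. MRPS18A carries a small-subunit name, but structures place this S18 relative in the large subunit. It measured 33.9, 33.2 and 31.2 FPKM in the controls and 40.4, 40.6 and 37.3 FPKM under the knockdown label, with no overlap. Its log2 change was 0.26 (SE 0.05, limma adjusted p = 0.0118, from 0.00472 to 0.0614 over the alternatives). MRPL48, a protein of the central protuberance, was nearly constant in the controls at 4.78, 4.76 and 4.74 FPKM and measured 6.00, 5.97 and 5.25 FPKM under the knockdown label. Its log2 change of 0.22 (SE 0.06, limma adjusted p = 0.0318, from 0.00821 to 0.109 over the alternatives) rested on 515 to 674 fragments per library. MRPL37, the most abundant large-subunit member per length, was at 78.1, 78.8 and 72.7 FPKM against 89.8, 92.3 and 83.2 FPKM. Here the lowest knockdown-labelled library exceeded the highest control by a few FPKM, and the log2 change was 0.21 (SE 0.06, limma adjusted p = 0.034, from 0.0101 to 0.174 over the alternatives).

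Small-subunit calls were led by MRPS2, whose bacterial counterpart binds late in assembly between the head and the body. It measured 46.2, 40.8 and 41.2 FPKM in the controls and 49.3, 53.1 and 51.6 FPKM under the knockdown label. Groups did not overlap, although control library 1 came close, and the log2 change was 0.26 (SE 0.06, limma adjusted p = 0.0161, from 0.00871 to 0.086 over the alternatives). MRPS5, which helps form the channel by which messenger RNA enters, measured 9.42, 10.3 and 9.57 FPKM against 11.9, 11.7 and 11.2 FPKM. The log2 difference was 0.22 (SE 0.05, limma adjusted p = 0.0206, from 0.0129 to 0.0881 over the alternatives). MRPS34, a mitochondria-specific subunit whose loss causes a Leigh-like disease, measured 153.7, 149.6 and 146.4 FPKM against 177.8, 178.7 and 163.5 FPKM. No library of one group entered the range of the other, and the log2 change was 0.21 (SE 0.06, limma adjusted p = 0.0307, from 0.00764 to 0.131 over the alternatives). The remaining 2 calls, named here with their values already seen, were MRPS18C, the S18 relative of the small subunit, and MRPS7, a protein of the head. The log2 difference of MRPS18C was 0.21 (SE 0.06, limma adjusted p = 0.0414) and MRPS7 one of 0.17 (SE 0.05, limma adjusted p = 0.0388); RefSeq lists 6 pseudogenes of the name of the first and 2 of the second, among which reads can have been split.

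By name, 5 of 49 MRPL genes (10.2%) and 6 of 26 tested MRPS genes (23.1%) were higher, with median log2 changes of 0.09 and 0.11; the difference between the subunits was not tested. Sorted by structure, 3 of 30 large-subunit proteins shared with bacteria and 3 of 21 particular to mitochondria were higher. In the small subunit these counts were 4 of 14 tested shared proteins and 1 of 9 particular to mitochondria. Medians of the 4 classes lay between 0.07 and 0.11. Of the members with a RefSeq pseudogene of their name 6 of 40 tested were higher, and of those without one 5 of 35.

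Apart from MRPL23, each of the 11 calls was lost in at least 1 fit that left out a library. Without control library 1, 2 or 3, the number of members called higher was 4, 2 or 1, and without knockdown-labelled library 1, 2 or 3 it was 8, 1 or 21. MRPL23 was the 1 member called higher without control library 3, and likewise without knockdown-labelled library 2, where MRPL39 was called lower. MRPS18C passed in 0 of the 6 fits that left out a library. The median log2 change of the members stayed above that of all tested rows in each of these fits, between 0.08 and 0.11. It was 0.04 under quantile normalization, which kept 6 of the 11 calls and under which 50.2% of all calls in the table were higher rather than 64.8%.

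Several of the most abundant members had no call. MRPL41, MRPL28 and MRPL57 had every knockdown-labelled library above every control, with log2 changes of 0.20, 0.19 and 0.19 and limma adjusted p-values of 0.0571, 0.0611 and 0.115; they passed in 5, 4 and 1 of the 14 alternatives. MRPS35 also had no overlap, at a log2 change of 0.13 (limma adjusted p = 0.0876). MRPS26 was level between the groups in the fit reported, at 82.3 ± 2.63 and 82.1 ± 1.46 FPKM (SD, n = 3). The 95% interval of its log2 difference ran from -0.11 to 0.10. Over the 14 alternatives that difference ran from -0.12 to 0.02, with no call (limma adjusted p from 0.0685 to 0.982). MRPL14, which forms a bridge between the subunits, had a log2 change of 0.02 (limma adjusted p = 0.873), and MRPS16 a value of 0.03 (limma adjusted p = 0.792). On the quantile scale the sign of both turned, to -0.07 and -0.04.

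The knockdown-labelled libraries were not alike for this family. Library 1 held the highest value of 39 of the 75 members, library 2 of 19 and library 3 of 8, whereas the controls together held the highest of 9. Median log2 differences from the control mean were 0.14, 0.09 and 0.06 in knockdown-labelled libraries 1 to 3, beside 0.02, 0.02 and 0.01 over all tested rows. In library 1 of the knockdown label 47 of 75 members (62.7%) lay outside the range of the other 5 libraries, and so did 47.2% of all tested rows. Summed over the members, FPKM was 1818, 1813 and 1766 in the controls and 1991, 1988 and 1896 under the knockdown label. As a share of all FPKM in the table, the members held 0.636%, 0.638% and 0.642% in the controls and 0.591%, 0.645% and 0.66% under the knockdown label. Library 1 thus had the highest summed level and the lowest share. Mitochondrially encoded mRNAs were most abundant in that library too, with MT-ND4 at 11740 FPKM against at most 9539 FPKM elsewhere, and the part of this in the members' values was not tested.

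**Figure D3:**
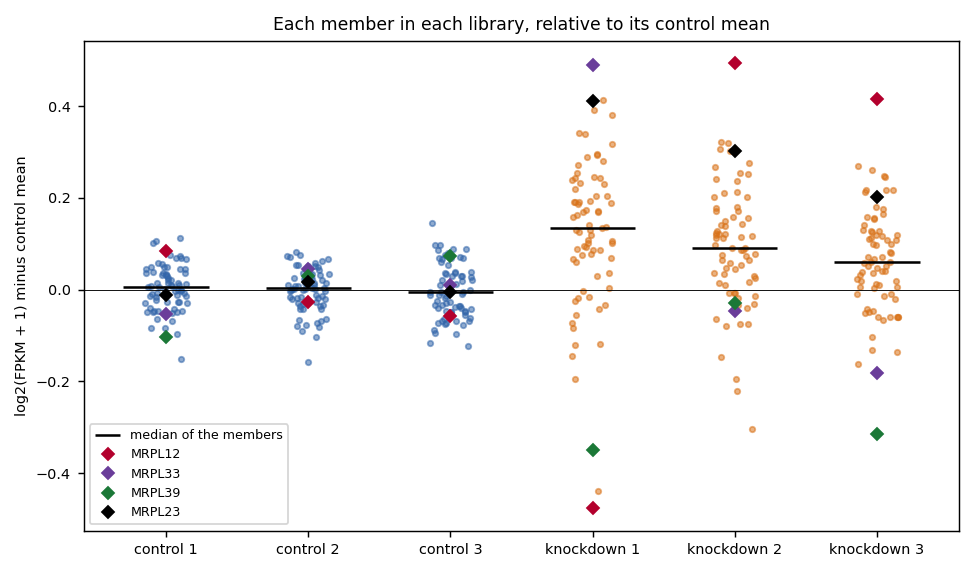
Each tested member in each library as log2(FPKM + 1) minus its control mean, with the median per library as a bar; MRPL12, MRPL33, MRPL39 and MRPL23 are marked. The medians under the knockdown label are 0.14, 0.09 and 0.06, MRPL12 is the lowest point of knockdown-labelled library 1 and the highest of libraries 2 and 3, and MRPL23 lies above 0 in all 3.

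MRPL12, MRPL33, MRPL39 and MRPL45, chosen for description with their values already seen, stood apart between libraries. MRPL12 forms the flexible stalk that recruits translation factors; it measured 35.8, 33.1 and 32.4 FPKM in the controls and 24.0, 47.9 and 45.3 FPKM under the knockdown label. Library 1 lay below all controls and libraries 2 and 3 above them, so the log2 change was 0.14 (SE 0.20, limma adjusted p = 0.646). Without that library it was 0.45 (limma adjusted p = 0.00127), the 1 call among the 14 alternatives, whose adjusted p-values reached 0.98. MRPL33 showed the opposite pattern, with 14.6, 15.7 and 15.3 FPKM in the controls and 21.7, 14.6 and 13.2 FPKM under the knockdown label. Only library 1 was high, and the log2 change went from 0.09 to -0.11 without it, with no call in any alternative.

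MRPL39 had the lowest value on the log2(FPKM + 1) scale, while as a percentage of the control mean FPKM the difference was -15.3% for MRPL39 and -25.8% for MRPL45. MRPL39 measured 16.1, 17.7 and 18.3 FPKM in the controls and 13.4, 17.0 and 13.8 FPKM under the knockdown label, where library 2 lay within the control range. Its log2 change of -0.23 did not pass (SE 0.08, limma adjusted p = 0.0845, from 0.0211 to 0.248 over the alternatives), and without library 2 it was -0.33 (limma adjusted p = 0.0211). MRPL45, which tethers the mitoribosome to the inner membrane, measured 0.955, 1.15 and 1.12 FPKM in the controls and 0.527, 0.871 and 0.988 FPKM under the knockdown label. MRPL45 was low, with 23 to 52 fragments per library, and RefSeq lists 2 pseudogenes of its name. Its groups overlapped, and its log2 change of -0.21 did not pass (SE 0.10, limma adjusted p = 0.15) or in any of the 13 alternatives that tested it; without knockdown-labelled library 1 it was -0.10.

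Mitoribosomal proteins without an MRP symbol gave no call in 5 tested, with 3 higher at an unadjusted p under 0.05 and 0 called by voom. Their median log2 change was 0.15. GADD45GIP1 (CRIF1), a large-subunit protein at the tunnel exit, measured 63.0, 61.1 and 57.6 FPKM against 92.7, 68.8 and 64.4 FPKM, with library 1 again highest, and had a log2 change of 0.29 (limma adjusted p = 0.0945). The small-subunit protein DAP3, a GTP-binding protein, had a log2 change of 0.16 and AURKAIP1 one of 0.15, both with groups that did not overlap, by a small margin for AURKAIP1 (limma adjusted p = 0.11 and 0.12). CHCHD1 had 0.10 and the RNA-binding protein PTCD3 -0.09, with overlapping groups.

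Genes that build and serve the mitoribosome were counted in 4 lists of 79 tested genes, of which 14 were higher (17.7%) and 1 lower (1.27%), with a median log2 change of 0.10. The background shares were 10.9% higher and 5.91% lower over all tested rows, and 16.0% higher among rows averaging 5 FPKM or more. The lists also hold genes under that level, so the last share is not a like one. When rows averaging 5 FPKM or more were fitted alone, 18 of 58 list genes were higher and 0 lower. Of all 6311 such rows, 1207 were higher and 459 lower in that fit. Among 28 assembly and rRNA modification genes, 8 were higher and 1 was lower. C1QBP, a matrix protein needed for mitochondrial translation, rose from 159.2 ± 5.45 to 199.0 ± 8.79 FPKM (SD, n = 3; log2 change 0.32, limma adjusted p = 0.00567, called in all 14 alternatives). MTERF3, ERAL1, a chaperone of the small-subunit rRNA, and MTG2, a GTPase of large-subunit assembly, had log2 changes of 0.34, 0.22 and 0.24 (limma adjusted p = 0.0128, 0.0158 and 0.0129) and passed in 12, 11 and 12 of the 14 alternatives, with adjusted p-values up to 0.0777. The helicases DDX28 and DHX30, NGRN and the pseudouridine synthase RPUSD4 made up the other higher calls. The lower gene, MRM1, an rRNA methyltransferase named after its values were seen, was at 1.38, 0.822 and 0.512 FPKM in the controls and at 0.231, 0.238 and 0.395 FPKM under the knockdown label (limma adjusted p = 0.0246, from 0.0102 to 0.0973 over 13 alternatives). Its values were low, with 11 to 63 fragments, and the controls differed among themselves more than 2-fold.

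Of 20 translation factors 2 were higher. TUFM, the elongation factor that delivers aminoacyl-tRNA, rose from 169.2 ± 7.05 to 211.0 ± 17.9 FPKM (SD, n = 3; log2 change 0.31, limma adjusted p = 0.0141, from 0.0034 to 0.071 over the alternatives). It passed in 10 of 14, and not with no filter or without control library 2 or 3 or knockdown-labelled library 2. GATC, a subunit of the enzyme that makes glutaminyl-tRNA, rose from 7.37 ± 0.361 to 9.67 ± 0.204 FPKM (SD, n = 3; log2 change 0.35, limma adjusted p = 0.00306, called in all 14 alternatives). Among 15 tested aminoacyl-tRNA synthetases, EARS2 and MARS2 were higher at log2 changes of 0.26 and 0.34 (limma adjusted p = 0.016 and 0.00937; called in 11 and 14 of the 14 alternatives, with adjusted p-values up to 0.0744 and 0.0424). Of 16 transcription and RNA processing genes, POLRMT, the mitochondrial RNA polymerase, and HSD17B10, a subunit of mitochondrial RNase P, were higher at 0.28 and 0.26 (limma adjusted p = 0.011 and 0.0257). POLRMT passed in 12 of the 14 alternatives (limma adjusted p up to 0.0572) and HSD17B10 in 8 (from 0.00248 to 0.099), the latter not with no filter, on the quantile scale, or without control library 1, 2 or 3 or knockdown-labelled library 2. Without control library 1, 2 or 3 the 14 higher calls of these lists became 9, 4 or 4, and without knockdown-labelled library 2 they became 7.

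**Figure D4:**
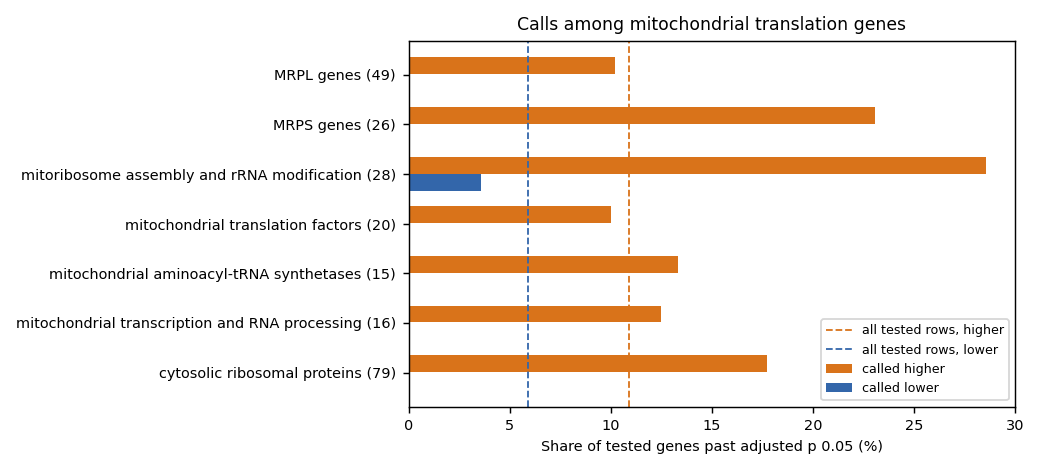
Share of tested genes called higher (orange) and lower (blue) in 7 lists, with the number tested in brackets; dashed lines are the shares over all tested rows (10.9% and 5.91%). The MRPL genes lie at 10.2% and the assembly list is the single one with a lower call.

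Around the family, 14 of 79 tested cytosolic ribosomal protein genes were higher (17.7%) and 0 lower, with a median log2 change of 0.11. Of all tested rows 10.9% were higher, and of rows averaging 5 FPKM or more 16.0%. At an unadjusted p under 0.05, 27 of the list were higher and 3 lower, and voom called 15 and 1. The calls include low rows: RPL7A averaged 3.885 FPKM, and RPS25 averaged 0.693 FPKM with 17 to 34 fragments per library. RPS9 was listed at 0 in every library. Of the 13 mitochondrially encoded mRNAs 2 were higher, MT-ND2 and MT-ND6, and the list had a median log2 change of 0.36. The calls of MT-ND2 and MT-ND6 did not hold under 7 of the 14 alternatives, with adjusted p-values up to 0.6 (limma). Over the alternatives the log2 change ran from 0.05 to 0.56 for MT-ND2 and from 0.02 to 0.54 for MT-ND6. Both were highest in knockdown-labelled library 1. Of 8 tested regulators of mitochondrial genes 2 were higher: MYC rose from 42.2 ± 0.882 to 53.3 ± 1.12 FPKM (SD, n = 3; log2 change 0.33, limma adjusted p = 0.00203), and PPARGC1B had a log2 change of 0.24 (limma adjusted p = 0.0249). Groups did not overlap for either gene. MYC passed in all 14 alternatives (limma adjusted p up to 0.0158) and PPARGC1B in 8 of 13 (from 0.00572 to 0.0977), not without control library 1, 2 or 3 or knockdown-labelled library 1 or 2. GABPA, a factor of the ETS family, had a log2 change of -0.13 (limma adjusted p = 0.229), and YY1 and NRF1 values of -0.0047 and -0.02. Of 11 tested immediate early and heat shock genes 3 were higher (27.3%) and 0 lower, where 10.9% of all tested rows were higher. These were JUN, EGR1 and IER2, at log2 changes of 0.47, 0.33 and 0.29 (limma adjusted p = 0.000273, 0.00203 and 0.00863). The other 8 were not called, FOS among them at 0.18 (limma adjusted p = 0.0805, called in 0 of 13 alternatives). The part of this list in the members' values was not tested.

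The promoters of the family are shown because they share short motifs that its selection by symbol did not use. RefSeq windows of 300 bases (GRCh38.p14, 250 before to 50 after the annotated start) matched 69 of the 78 members, 11 of them with more than 1 window, and a gene counts once if any of its windows holds the motif; MRPL10, MRPL13, MRPL15, MRPL2, MRPL21, MRPL23, MRPL35, MRPS28 and MRPS36 were not matched. CCGGAAG, the core bound by ETS factors such as GABPA, was found on either strand in 30 of the 69 members (43.5%), against 23.5% of 8618 tested genes with a window and 12.2% of all 27305 genes with one. AAGATGGCG, the motif of YY1, was in 13 members (18.8%), against 5.09% and 2.14%. Both motifs occurred together in MRPL38, MRPL52, MRPS10 and MRPS18A. Examples are printed 5′ to 3′ on the gene's strand with the motif, or its reverse complement, in capitals; none of the capitals is shown to be bound in these cells. They lie at chr16:1773135-1773164 (MRPS34, minus strand, a stretch that RefSeq also gives to EME2), chr6:43687792-43687852 and chr6:43687763-43687792 (MRPS18A, minus strand), chr6:42217833-42217862 (MRPS10, minus strand), chr5:44808950-44808979 (MRPS30, plus strand) and chr11:73787781-73787847 (MRPL48, plus strand).
MRPS34 (2 ETS cores, before the start): tCTTCCGGtgaCTTCCGGccggaccgctga
MRPS18A (ETS core, before the start): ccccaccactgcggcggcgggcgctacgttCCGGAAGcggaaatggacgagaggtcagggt
MRPS18A (YY1 motif, after the start): taggtttttgAAGATGGCGgccctcaaggc
MRPS10 (YY1 motif, after the start): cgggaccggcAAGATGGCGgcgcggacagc
MRPS30 (YY1 motif, after the start): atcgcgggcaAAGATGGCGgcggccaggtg
MRPL48 (ETS core, before the start): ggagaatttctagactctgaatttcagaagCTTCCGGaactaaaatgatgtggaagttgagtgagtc

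The motifs differed in where they lay. Each place in the genome was counted once for a gene, at its position from the nearest annotated start. Of 14 AAGATGGCG matches 12 were on the gene's strand and 10 after the start, with a median first position of 9 bases into the transcript. This motif holds the letters ATG of a start codon, and whether its matches are also the starts of translation was not tested. The 40 CCGGAAG matches were spread over both strands, 18 on the gene's strand and 22 on the other, with a median position of -24. Other motifs were no more frequent than in other tested genes: the NRF1 motif (GCGCA, any base, then GCGC) in 13.0% against 14.2%, CACGTG (the E-box bound by MYC among others) in 13.0% against 13.0%, GGGCGG (the GC box) in 60.9% against 79.3% and TATAAA (the TATA box) in 4.35% against 7.62%, both strands searched. Calls were spread over members with and without the motifs, 4 of 29 tested members with CCGGAAG against 6 of 37 without, and 1 of 11 with AAGATGGCG against 9 of 55 without.

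**Figure D5:**
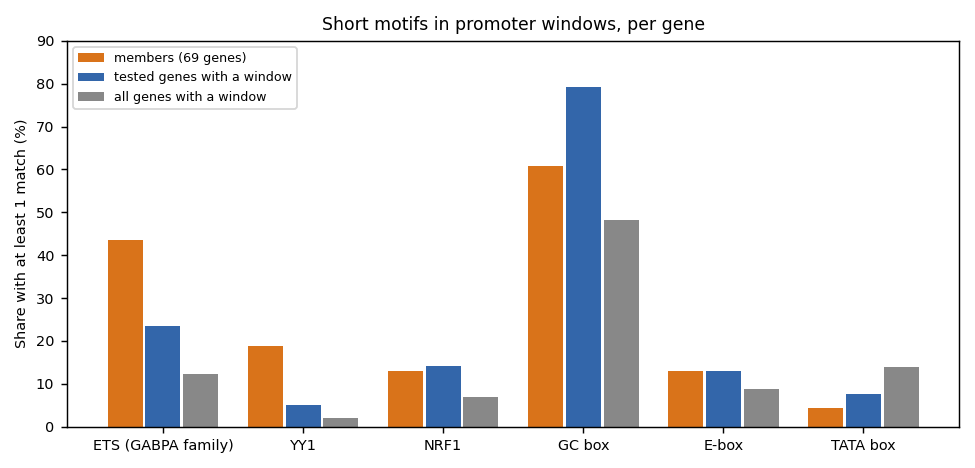
Share of genes with at least 1 match on either strand in any promoter window for 6 motifs, in members (orange), tested genes with a window (blue) and all genes with a window (grey). The ETS core is in 43.5% of members against 23.5% of tested genes and the YY1 motif in 18.8% against 5.09%, while the GC box is in 60.9% against 79.3%.

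The lncRNA table held 2 noncoding genes named after members, MRPL23-AS1 with 0 to 3 fragments per library and MRPS30-DT with 2 to 6. Both fell under the filter of 0.1 FPKM and were not tested at these depths. Without the filter neither passed (limma with Benjamini-Hochberg adjustment over that table, adjusted p = 0.731 and 0.89), and a divergent or antisense RNA and its partner cannot be told apart where the use of strand is not given.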

How the data were processed

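RNA of 3 control and 3 SRSF3 knockdown-labelled libraries of gemcitabine-resistant PANC-1 was analysed from FPKM values per gene symbol, deposited by the authors in an mRNA and a lncRNA table. HISAT2, StringTie, Cuffdiff and edgeR are named, without role or version, per the submitters' processing notes, with build, annotation and strand use not given in the sources used here. Per the labels' protocols, both a poly-T selection and a stranded rRNA depletion were done, and no source says which gave each table. Splitting of reads between genes and near-identical pseudogenes by the authors' counting is unknown.

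In the mRNA table, the 10823 rows averaging 0.5 FPKM or more were fitted as log2(FPKM + 1) with limma-trend (limma 3.58.1, R 4.3.3), without rescaling, and two-sided p-values were adjusted over them by Benjamini-Hochberg with a threshold of 0.05. Fold changes are on that scale and understate those of low genes. Lists were counted in the same fit. In the lncRNA table, rows averaging 0.1 FPKM or more were fitted as log2(FPKM + 0.1). The fit was tested on simulated data.

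Whole reads were recovered: with 1 total per library and 1 length per gene, 99.8% of the mRNA rows above 0 in at least 3 libraries gave whole fragments within 0.003, and so did all 76 members above 0. These went into limma voom with the recovered totals, an alternative chosen after seeing the data, which called 1277 rows higher and 760 lower. Fragments summed over the mRNA rows came to 96.0%, 95.3% and 93.1% of the recovered totals in control libraries 1 to 3. Under the knockdown label they came to 104.6%, 101.3% and 96.6%. The totals are thus not simply sums of the counted fragments, and the part of this in the changes was not tested. The other 13 alternatives were a pseudocount of 0.1, no filter, rows averaging 5 FPKM or more, quantile normalization, median scaling, robust empirical Bayes, a replicate block, and each library left out in turn. Motifs were searched as exact letters in RefSeq promoter windows with Python 3.11.15 and pandas 2.3.3.

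Members and lists were chosen with earlier results of these data known. Named genes are SRSF3, the 8 largest called rises and falls, the 5 most abundant members of each subunit, members failing the filter, the 5 proteins without an MRP symbol, and up to 4 genes of smallest p per other list. Other genes were named after their values were seen.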

Additional observations from a re-analysis of the deposited data

How the results depend on the processing

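With 3 libraries a group, spread between libraries limits calls of changes this small. Members called higher were 11 as reported, 3 with no filter, 6 on the quantile scale, and 1 to 21 when each library was left out; members called lower were 0, and 0 to 1 when each library was left out. MRPL genes called higher were 5 as reported, 1 with no filter, 8 with rows averaging 5 FPKM or more, 3 on the quantile scale and 1 to 15 with a library left out. MRPS genes called higher were 6, 2 with no filter, 3 on the quantile scale and 0 to 6 with a library left out. The 4 lists had 14 higher calls as reported, 8 with no filter and 4 to 21 with a library left out, and 1 lower call, which was 0 with no filter or with rows averaging 5 FPKM or more and 0 to 2 with a library left out. The members' median log2 change was 0.0971, 0.0402 on the quantile scale and 0.0791 to 0.11 with a library left out. The log2 change of SRSF3 ran from -0.0683 to -0.0211 with a library left out. On the quantile scale it was -0.118 (limma adjusted p = 0.16), a larger fall than the -0.0388 reported, and it did not pass there either. Over the whole table, rows called higher and lower were 1179 and 640 as reported, 595 and 365 with no filter, 1207 and 459 (72.4% higher) for rows averaging 5 FPKM or more, 817 and 809 on the quantile scale, and 1277 and 760 with voom. The planned voom fit with TMM factors was tried, but its values are not given because the tool that makes the factors was set aside for FPKM tables. It called fewer members higher than the fit reported, none lower, and split the calls of the whole table about evenly, as the quantile scale did, whereas the voom fit without such factors, chosen after seeing the data, did not. Signs turned for members near 0. On the quantile scale MRPL14 was -0.0705 and MRPS16 -0.0445. The lowest value of MRPS26 over all 14 alternatives was -0.119. With a library left out, MRPL14 ran from -0.0693 to 0.134, MRPS16 from -0.0182 to 0.0824, MRPS26 from -0.028 to 0.0176, MRPL12 from -0.031 to 0.455 and MRPL33 from -0.114 to 0.222. With the replicate number as a block, members called higher were 18 (11 MRPL and 7 MRPS genes, all 11 reported calls among them) and 1, MRPL39, was lower. Same-numbered libraries had correlations of 0.0776, 0.0385 and 0.279 between their deviations from the group means, and control library 1 correlated best with knockdown-labelled library 2 (0.153), so the numbers were not taken as pairs. The cause of these differences was not tested.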
